A study of Mus musculus with 6 samples.

Results

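The contractile genes that depend on serum response factor (SRF) were followed in JAG1-overexpressing astrocytes. They are 10 genes, chosen by symbol among the 23282 gene rows of the data, which write the symbols in capitals. They comprise SRF itself, the smooth muscle actins ACTA2 and ACTG2, the tropomyosins TPM1 and TPM2, the calponins CNN1 and CNN2, TAGLN, CALD1 and MYL9, written below as mouse genes (Srf, Acta2 and so on). The cells were a murine astrocyte line labelled as brain and as Ink4a-/-, which the study's methods write as Ink4a/Arf-/-, transfected with pcDNA3.1-puro (control, 3 libraries) or with its JAG1-carrying form, pcDNA3.1-JAG1-puro (labelled JAG1 overexpression, 3 libraries). Both groups carry this deletion and the puromycin vector, and the control libraries bear the genotype label WT, read here as without JAG1. The plasmid pcDNA3.1 drives its insert from the cytomegalovirus promoter, and JAG1 is a ligand of Notch receptors. Neither the age of the donor animals nor the number of separate transfections behind each group was given in the sources used here, so the spread between libraries may be technical. RNA was read by QuantSeq, which sequences the 3′ end of polyadenylated transcripts, so a gene's reads do not rise with transcript length and do not separate splice isoforms.

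SRF is a transcription factor that binds a DNA element called the CArG box in genes of the actin cytoskeleton. Its cofactors are held by monomeric actin and enter the nucleus when actin is drawn into filaments, which ties the transcription of contractile genes to the state of the cytoskeleton. A second set of cofactors, the ternary complex factors, directs SRF to immediate early genes. Contractile genes of this kind are known mainly from smooth muscle, pericytes and myofibroblasts, and cultured cells of other types also express part of them.

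The libraries held between 14341634 and 20489062 reads counted on genes, the fewest in JAG1-overexpressing replicate 2. Values are given as CPM, reads scaled to a library of 1e6 after edgeR's TMM normalization, as mean ± SD over 3 libraries, and 3 reads, taken as the limit of detection, equal between 0.148 and 0.206 CPM. That limit and all intervals on reads cover counting error only. The Jag1 row rose from 10.3 ± 1.18 CPM (n = 3) to 14.2 ± 0.862 CPM (n = 3), a log2 fold change of 0.46 (SE 0.11, edgeR quasi-likelihood adjusted p = 0.00446). Whether transcripts of the plasmid are counted on this row was not given in the sources used here, and the row would not separate them from chromosomal ones. The rise in Jag1 therefore need not measure the overexpression. Of the 11712 genes with enough reads to be tested, 55.1% differed at an adjusted p under 0.05. Those higher in JAG1-overexpressing cells were 27.4% of the genes and those lower 27.7%, and the median log2 fold change of all tested genes was 0.00386.

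SRF binds the CArG box, so windows from 250 bases before to 50 bases after a transcript start were searched for it. The 250 bases before the start are shown for 5 genes that differ in their matches and in their values. For Srf, Acta2, Tpm1 and Tpm2 the transcript start used lies inside the span annotated for the gene. Part or all of their printed bases therefore lie inside that span. The sequences are those of RefSeq on GRCm38.p6, written 5′ to 3′ along the gene's strand. Capitals mark a match to the CArG box or a stretch that departs from it at 1 position.
Srf (chr17:46556163-46556412, minus strand): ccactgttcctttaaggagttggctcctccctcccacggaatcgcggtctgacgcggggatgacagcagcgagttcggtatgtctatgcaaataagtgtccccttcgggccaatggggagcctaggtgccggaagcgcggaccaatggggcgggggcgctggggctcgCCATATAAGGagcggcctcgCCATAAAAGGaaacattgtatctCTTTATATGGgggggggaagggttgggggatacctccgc
Cnn2 (chr10:79988350-79988599, plus strand): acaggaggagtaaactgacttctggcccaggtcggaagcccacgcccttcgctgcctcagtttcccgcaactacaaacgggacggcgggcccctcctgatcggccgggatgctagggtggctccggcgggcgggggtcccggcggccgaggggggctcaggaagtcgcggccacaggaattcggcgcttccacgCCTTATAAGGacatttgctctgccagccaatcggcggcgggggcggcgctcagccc
Acta2 (chr19:34255374-34255623, minus strand): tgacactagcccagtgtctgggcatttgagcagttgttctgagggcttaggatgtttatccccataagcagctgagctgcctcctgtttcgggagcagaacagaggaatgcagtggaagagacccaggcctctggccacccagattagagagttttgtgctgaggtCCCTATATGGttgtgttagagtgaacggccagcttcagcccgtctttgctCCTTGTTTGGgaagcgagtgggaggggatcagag
Tpm1 (chr9:67049214-67049463, minus strand): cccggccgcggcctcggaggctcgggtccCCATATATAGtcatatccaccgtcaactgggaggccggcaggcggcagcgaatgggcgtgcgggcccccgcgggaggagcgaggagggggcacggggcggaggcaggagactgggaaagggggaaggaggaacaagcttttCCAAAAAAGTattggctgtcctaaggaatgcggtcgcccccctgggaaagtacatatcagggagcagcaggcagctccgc
Tpm2 (chr4:43523555-43523804, minus strand): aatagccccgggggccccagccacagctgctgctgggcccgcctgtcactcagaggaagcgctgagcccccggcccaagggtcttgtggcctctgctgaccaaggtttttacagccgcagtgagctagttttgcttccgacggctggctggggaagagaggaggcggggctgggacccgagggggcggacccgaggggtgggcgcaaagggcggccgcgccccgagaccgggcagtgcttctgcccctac
Srf had 2 exact boxes, 82 and 62 bases before its start, and a near match at 39. Cnn2 had 1 exact box at 56 bases. Acta2 had no exact box in this window but near matches at 84 and 34 bases, and Tpm1 had near matches at 221 and 80 bases. Tpm2 had neither. Of the other genes, Myl9 had an exact box at 161 bases and a near match at 99, Cald1 a near match at 203, and Cnn1 neither. Exact boxes were thus found in 3 of 8 genes with a sequence, where 1.81% of all 27025 genes with one had a box. Exact or near matches were found in 6 of 8, against 23.8%. Since the genes were listed as SRF-dependent and include Srf, these shares are a description and nothing is read from them. The box reads the same on both strands, so 1 search covered both. A match is a description of these letters and not a measured site, and SRF binding was not measured.

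Of the 10 genes, 7 had enough reads to be tested. Among them Acta2, Tpm1, Tpm2, Cald1 and Cnn2 were lower in JAG1-overexpressing cells, Srf was higher and Tagln did not pass the threshold. Since the genes were chosen on this same comparison, their values are a description, no p-value is given for them and nothing is read from their count beside the 27.7% of all tested genes that were lower and the 27.4% that were higher. Among the 7, the groups did not overlap for the same 6 genes, as for 30.9% of all tested genes with every JAG1-overexpressing library lower and 31.1% with every one higher. Tpm2 passed the filter on reads through the control libraries alone. The 3 genes that could not be tested, Actg2, Cnn1 and Myl9, had at most 11 reads in any library. The summed level of all 10 genes was between 3699 and 3896 CPM in the control libraries and between 1743 and 1785 CPM in the JAG1-overexpressing ones.

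**Figure D1:**
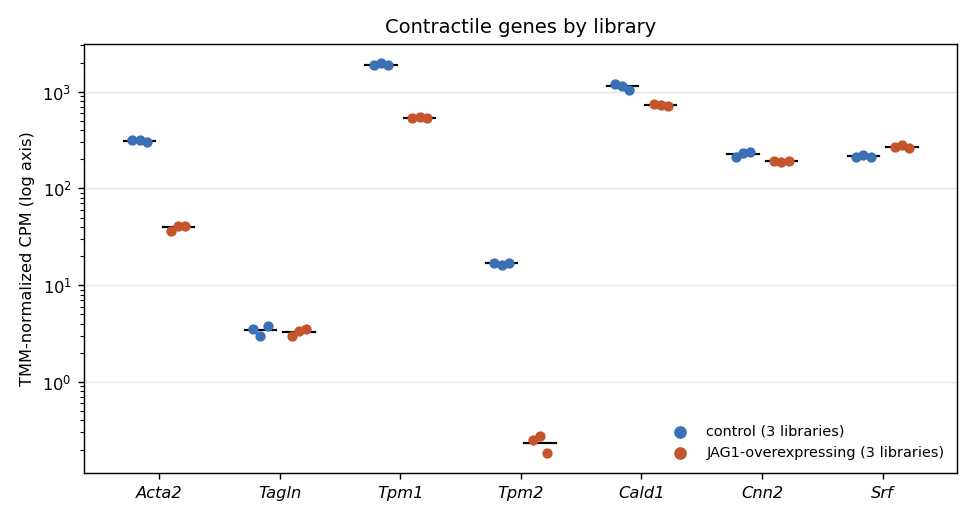
TMM-normalized CPM (log axis) of the 7 contractile genes with enough reads, in each of 3 control (blue) and 3 JAG1-overexpressing (orange) libraries, with the group mean as a line. The groups lie apart for every gene but Tagln, with Srf the one gene higher in JAG1-overexpressing cells and Tpm2 at between 3 and 5 reads.

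Srf encodes the transcription factor, and it is itself a target of SRF. It had 4315, 4099 and 4058 reads in the control libraries and 5416, 4065 and 4320 in the JAG1-overexpressing libraries. The lowest JAG1-overexpressing library, at 262 CPM, lay above the highest control library, at 220.1 CPM. Its level went from 215 ± 4.29 CPM (n = 3) to 271 ± 8.68 CPM (n = 3), a log2 fold change of 0.33 (SE 0.05), or 1.26-fold. The change in Srf was thus in the opposite direction to that of the 5 genes with lower levels.

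Acta2, which encodes smooth muscle alpha-actin, had 6354, 5842 and 5790 reads in the control libraries and 734, 597 and 670 in the JAG1-overexpressing libraries. Control libraries lay between 303 and 314 CPM and JAG1-overexpressing libraries between 36.6 and 41.1 CPM, so the groups did not overlap. Acta2 went from 310 ± 6.25 CPM (n = 3) to 39.5 ± 2.49 CPM (n = 3), a log2 fold change of −2.98 (SE 0.06), which is 7.86-fold higher in control. Actg2, the gamma-actin of smooth muscle, had 11, 3 and 4 reads in control and 0, 0 and 1 in JAG1-overexpressing libraries, a ratio of 15.8 (95% Clopper-Pearson interval 2.5 to 660, on pooled reads). Control replicates 1 and 3 alone had more than 3 reads of it. Actin coding sequences are nearly identical, and how reads matching several of them were assigned was not given in the sources used here. Within each library, Acta2 took between 2.54% and 2.63% of the reads on the 6 actin genes in control and between 0.473% and 0.545% in JAG1-overexpressing cells. Actb, the cytoplasmic beta-actin, took between 90.4% and 91.6% in every library, while the actin genes together went from 11930 ± 410 to 7764 ± 246 CPM (n = 3).

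Tpm1 and Tpm2 encode tropomyosins, which lie along actin filaments and control access of myosin to them. Tpm1 had 38121, 36420 and 36057 reads in the control libraries and 10708, 7963 and 8798 in the JAG1-overexpressing libraries. Its level went from 1908 ± 41.0 CPM (n = 3) to 539 ± 8.01 CPM (n = 3), a log2 fold change of −1.82 (SE 0.05), or 3.54-fold higher in control. Tpm1 made up between 48.9% and 51% of the summed level of the 10 genes in control and between 29.9% and 30.7% in JAG1-overexpressing cells. Tpm2 had 346, 301 and 326 reads in control and 5, 4 and 3 in JAG1-overexpressing libraries, the largest difference of the group. The pooled reads, set against library size, were 71.4 times higher in control (95% Clopper-Pearson interval 40.7 to 139), and the fitted log2 fold change was −6.12 (SE 0.18).

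Since Tpm1 and Tpm2 were chosen on this comparison, the make-up of the tropomyosin family is given as a description. Tpm1 took between 80.7% and 81.2% of the reads on the 4 tropomyosin genes in control and between 55.4% and 56.8% in JAG1-overexpressing cells. Tpm3, a tropomyosin of most cell types, took between 13.5% and 13.9% in control and between 33.6% and 35.0% in JAG1-overexpressing cells. Its own level was 323 ± 2.33 CPM (n = 3) in control and 327 ± 17.0 CPM (n = 3) in JAG1-overexpressing cells, and it did not pass the threshold (edgeR adjusted p = 0.754). Tpm4 fell by 0.24 on the log2 scale (SE 0.05, edgeR adjusted p = 0.00338). All tropomyosin reads together were at 40.7% of the control level. These shares were computed after the values of the genes had been seen.

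**Figure D2:**
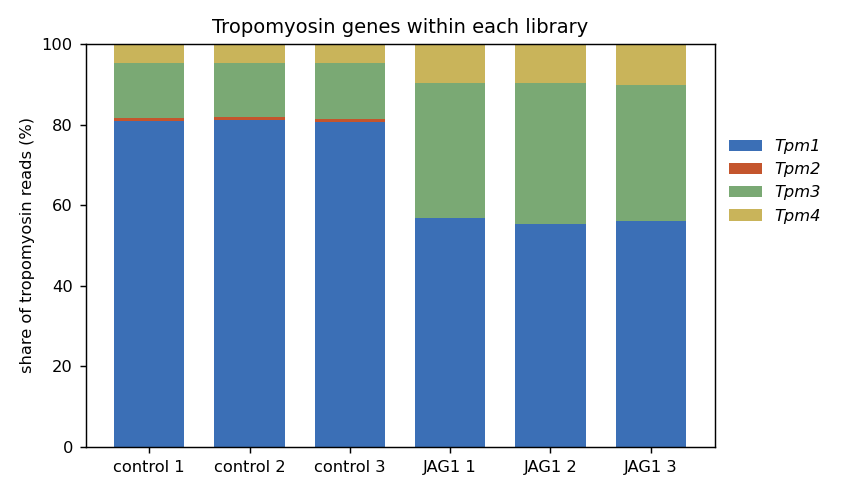
Share of the reads on Tpm1, Tpm2, Tpm3 and Tpm4 (%) in each of the 6 libraries, stacked to 100%. Tpm1 takes at least 80.7% in each control library and at most 56.8% in each JAG1-overexpressing library, and Tpm2 is a thin band in control that is too small to see in JAG1-overexpressing libraries.

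Cald1, caldesmon, binds actin and restrains myosin. It had 24374, 21508 and 19861 reads in the control libraries and 15021, 10518 and 11676 in the JAG1-overexpressing libraries. Every JAG1-overexpressing library lay below every control library, the levels being 1132 ± 84.6 CPM (n = 3) and 727 ± 19.96 CPM (n = 3), a log2 fold change of −0.64 (SE 0.06). Cald1 was the contractile gene with the most reads in JAG1-overexpressing cells, where it made up between 40.5% and 42% of the sum, against between 28.1% and 31.3% in control.

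Among the calponins, actin-binding proteins of which calponin 1 is typical of smooth muscle, Cnn2 had 4295, 4341 and 4551 reads in control and 3848, 2743 and 3171 in JAG1-overexpressing libraries. Its level went from 228 ± 13.8 CPM (n = 3) to 191 ± 2.04 CPM (n = 3), a log2 fold change of −0.25 (SE 0.06). The groups did not overlap, but this was the smallest of the 5 differences, at 1.19-fold. Cnn1 had 3, 4 and 1 reads in control and 2, 0 and 0 in JAG1-overexpressing libraries, too few to compare, with a ratio of 3.52 (95% Clopper-Pearson interval 0.703 to 34). Tagln, or SM22, is an actin-bundling protein and a classic SRF target. It had 72, 55 and 72 reads in control and 60, 49 and 58 in JAG1-overexpressing libraries, at 3.42 ± 0.422 and 3.29 ± 0.274 CPM (n = 3), and the groups overlapped. Its log2 fold change of −0.06 (SE 0.17) changed sign when control replicate 3 (0.0031) or JAG1-overexpressing replicate 1 (0.011) was left out. Tagln2, the transgelin of non-muscle cells, took at least 99.7% of transgelin reads in every library. Myl9, a regulatory light chain of myosin, had 0, 1 and 2 reads in control and 0 in each JAG1-overexpressing library, and no fold is given. Among reads on Myl9 and its close relatives Myl12a and Myl12b, nearly all came from these relatives.

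The smooth muscle forms Actg2, Cnn1 and Myl9 and the smooth muscle myosin Myh11, with at most 6 reads in a library, were at or near the limit of detection in both groups. In bulk RNA, fewer cells that express a gene and less RNA of it per cell cannot be told apart.

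Acta2 lies at chr19:34240336-34255585 (GRCm38), on a chromosome where most genes were higher in JAG1-overexpressing cells. Of 422 tested genes of chromosome 19, 313 rose and 31 fell, and the median log2 fold change was 0.61. Relative to the median of the other chromosome 19 genes, Acta2 was at −3.59, and only 4 of the 421 others had a lower log2 fold change. Of its 10 nearest tested genes, 8 were higher, among them Stambpl1, the neighbour on one side, at 1.26 (SE 0.14). On the other side, Fas, which encodes a death receptor, was lower at −2.37 (SE 0.23). Tpm2 on chromosome 4, Tpm1 on chromosome 9, Cald1 on chromosome 6, Cnn2 on chromosome 10 and Srf on chromosome 17 lie on chromosomes with a median between −0.00085 and 0.04, so that their values relative to it differed little from those given. Of the 10 nearest tested genes, 0 were higher and 5 lower for Tpm1 (median −0.22), and 0 and 4 for Cald1 (median −0.28). Those of Srf were 0 higher and 3 lower (median −0.14), of Tpm2 2 and 2 (0.03), of Tagln 3 and 3 (−0.04). Cnn2 had 4 higher and 0 lower (median 0.21). Among all tested genes 27.4% were higher and 27.7% lower. The part of such surroundings in these values, and of the shift of chromosome 19 in the value of Acta2, was not tested.

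**Figure D3:**
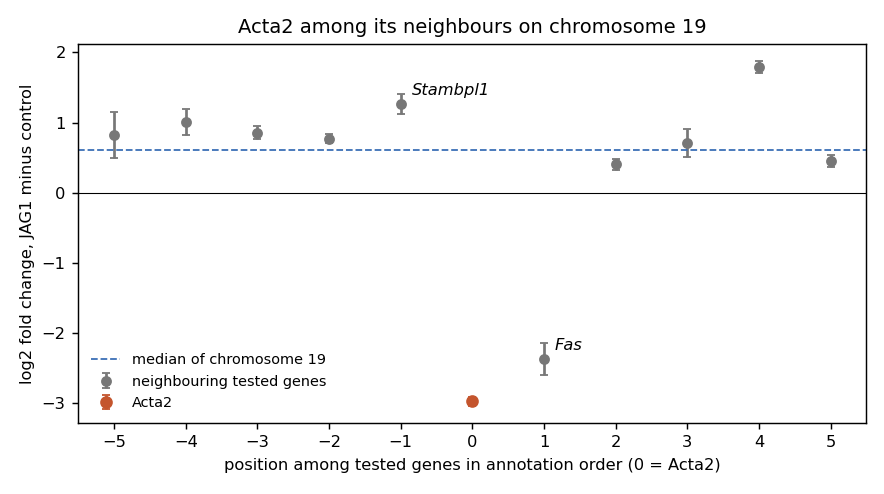
Log2 fold change, JAG1-overexpressing minus control, with its SE, of Acta2 (orange) and the 5 nearest tested genes on either side (grey), in their order along chromosome 19, with the chromosome's median of 0.61 dashed. Acta2 at −2.98 and Fas at −2.37 lie below 0, and the other 9 neighbours lie above it.

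Other known SRF targets were read for the same comparison, from a list chosen with earlier results of these data known. It held 26 genes, of which 23 were tested. Of these, 17 were lower, 3 were higher and 3 did not pass the threshold. Their median log2 fold change was −0.69, where that of all tested genes was 0.00386 and 27.7% were lower. At least 2-fold, 9 were lower and 1 higher, against 8.49% and 5.46% of all tested genes. Ccn2, a matricellular protein, fell most among targets with a mean of 10 CPM or more, from 1857 ± 493 to 184 ± 14.8 CPM (n = 3), a log2 fold change of −3.33 (SE 0.17, edgeR adjusted p = 2.91e-08). Fhl1, a LIM domain protein of muscle, fell from 28.8 ± 2.89 to 5.50 ± 1.25 CPM (n = 3), a log2 fold change of −2.40 (SE 0.15, edgeR adjusted p = 1.39e-07). Vcl, vinculin, had a log2 fold change of −1.23 (edgeR adjusted p = 2.69e-07), Actn1, alpha-actinin 1, of −0.82 (edgeR adjusted p = 4.97e-08), and Mylk, the kinase of the myosin light chain, of −1.08 (edgeR adjusted p = 3.17e-06). Myh9, the heavy chain of non-muscle myosin, was at −1.46 (edgeR adjusted p = 3.52e-08) on chromosome 15, where the median was −0.53.

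Not all targets fell. Ankrd1, a nuclear and sarcomeric ankyrin protein, rose from 196 ± 0.814 to 423 ± 23.5 CPM (n = 3), a log2 fold change of 1.11 (SE 0.05, edgeR adjusted p = 1.80e-08), and lies on chromosome 19, with its median of 0.61. Lpp, a focal adhesion protein, rose by 0.59 (SE 0.09, edgeR adjusted p = 0.000287) and Tes, another, by 0.57 (SE 0.06, edgeR adjusted p = 6.59e-06). Ccn1, the close relative of Ccn2, had 607 ± 282 CPM (n = 3) in control and 765 ± 62.7 CPM (n = 3) in JAG1-overexpressing cells and did not pass the threshold (edgeR adjusted p = 0.313). Its control libraries ranged from 5961 to 16115 reads, and those of Ccn2 from 26491 to 43235. Lmod1, Actc1, Myh11 and Synpo2 were listed at few reads, Actc1 with at most 1 in a library and Lmod1 with 24, 24 and 14 in control and 1, 3 and 0 in JAG1-overexpressing libraries. Lmod1 is counted among the targets that were lower, also at least 2-fold. It passed the filter on reads through the control libraries alone, so it could hardly have been called higher. Without the genes of chromosomes 15 and 19, 15 targets were lower and 2 higher.

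**Figure D4:**
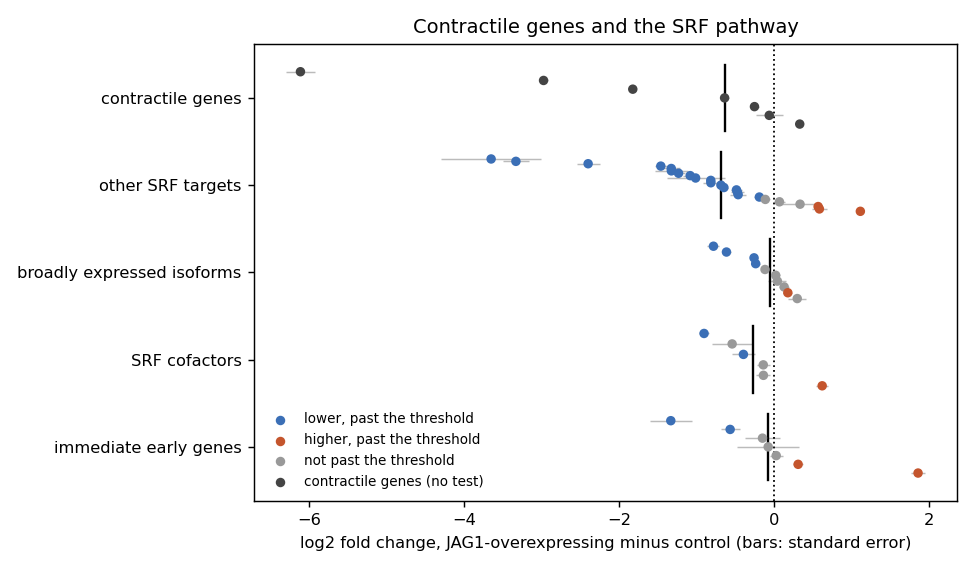
Log2 fold changes (JAG1-overexpressing minus control, bars: SE) of the tested contractile genes and of 4 lists of related genes, 1 point a gene, colored by the edgeR call, with the median of each list as a line and that of all tested genes dotted. The contractile genes, shown without a call, span −6.12 to 0.33, and the other SRF targets have a median of −0.69.

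Of 11 broadly expressed relatives of the contractile genes, 10 were tested. Of these, 4 were lower, 1 higher and 5 did not pass the threshold, with a median of −0.05, where 27.7% of all tested genes were lower and 27.4% higher. None changed 2-fold, as 8.49% of all tested genes did downward and 5.46% upward. Actb fell by 0.61 on the log2 scale (SE 0.06, edgeR adjusted p = 3.38e-06) and Myh10, a non-muscle myosin heavy chain, by 0.78 (SE 0.08, edgeR adjusted p = 6.95e-06). Myl6, an essential light chain, rose by 0.18 (SE 0.06, edgeR adjusted p = 0.0233). The number that rose depended on single libraries: it was 0 without control replicate 2 or JAG1-overexpressing replicate 3, 2 without JAG1-overexpressing replicate 2 and 3 without control replicate 3. Tagln3 had at most 3 reads. These relatives were not chosen as genes free of SRF. An exact CArG box was found in 2 of the 10 with a sequence and in 6 of 23 other SRF targets, where 1.81% of all genes had one.

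Of 7 SRF cofactors, 6 were tested, with 2 lower and 1 higher (33.3% and 16.7%, against 27.7% and 27.4% of all tested genes). Myocd, the cofactor of muscle, had 0 reads in each of the 6 libraries. Mrtfa, an actin-bound cofactor, fell from 95.7 ± 3.62 to 51.1 ± 2.64 CPM (n = 3), a log2 fold change of −0.90 (SE 0.06, edgeR adjusted p = 4.49e-07), and lies on chromosome 15, where 345 of 458 tested genes were lower. Its relative Mrtfb, at −0.14 (SE 0.09, edgeR adjusted p = 0.221), did not pass the threshold. Scai, a suppressor of these cofactors, was lower at −0.40 (SE 0.15, edgeR adjusted p = 0.0432). The number of lower cofactors went from 2 to 1 when control replicate 2 or 3 or JAG1-overexpressing replicate 1 or 3 was left out. Elk3, a ternary complex factor, rose by 0.62 (SE 0.08, edgeR adjusted p = 3.52e-05), while Elk1 and Elk4 did not pass the threshold.

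Of 10 immediate early genes, 7 were tested, 2 higher and 2 lower, with a median of −0.08. Each direction thus held 28.6% of them, close to the 27.4% higher and 27.7% lower among all tested genes. Egr1, a zinc finger transcription factor, rose from 25.9 ± 3.004 to 94.0 ± 8.60 CPM (n = 3), a log2 fold change of 1.86 (SE 0.10, edgeR adjusted p = 3.52e-08), and Mcl1, a survival factor, rose by 0.31 (SE 0.06, edgeR adjusted p = 0.00138). Junb fell by 0.57 on the log2 scale (SE 0.12, edgeR adjusted p = 0.00247). Egr3, at a lower level of 2.62 ± 0.401 CPM in control and 1.03 ± 0.318 CPM in JAG1-overexpressing cells (n = 3), fell by 1.33 (SE 0.27, edgeR adjusted p = 0.00154). Fos had at most 9 reads and Egr4 at most 1.

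Markers of cells that are rich in contractile genes moved in the same comparison. Of 11 markers of pericytes and smooth muscle, 3 were tested and all 3 were lower, where 27.7% of all tested genes were. One of them, Anpep, had 72 reads in control and 1 in JAG1-overexpressing libraries in total. It passed the filter on reads through the control libraries alone, so it could hardly have been called higher. The summed level of all 11 markers lay between 88.6 and 93.9 CPM in control and between 23.4 and 30.6 CPM in JAG1-overexpressing libraries, nearly all of it Pdgfrb. The defining markers Rgs5, Cspg4, Kcnj8 and Higd1b had 0 reads in every library, and Des, desmin, was at 6.74 ± 0.986 and 0.767 ± 0.225 CPM (n = 3). Of 9 fibroblast markers, 5 were tested, 3 lower and 1 higher, beside 27.7% and 27.4% of all tested genes. Among the lower ones, Dcn also passed the filter through the control libraries alone. The 9 summed to between 423 and 473 CPM in control and between 254 and 294 CPM in JAG1-overexpressing libraries. Lum, Thy1, Fap and Postn had 0 reads in every library, and Col1a2 rose from 3.35 ± 0.528 to 50.7 ± 6.20 CPM (n = 3) while Col3a1 fell from 199 ± 23.8 to 61.2 ± 2.88 CPM (n = 3). The part of these cells in the contractile genes' values was not tested.

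The label astrocyte was checked against 9 markers, of which 5 were tested and all 5 were lower, beside 27.7% of all tested genes. S100b and Aldoc passed the filter on reads through the control libraries alone, so they could hardly have been called higher. The sum of all 9 lay between 310 and 370 CPM in control and between 108 and 122 CPM in JAG1-overexpressing libraries. Gfap and Aqp4, which define mature astrocytes, had 0 reads in each library, and Sox9, a glial transcription factor, went from 181 ± 4.64 to 17.97 ± 1.25 CPM (n = 3). Markers of microglia summed to between 5.65 and 6.07 CPM in control and between 3.46 and 4.34 CPM in JAG1-overexpressing libraries. Those of endothelial cells summed to at most 0.322 CPM and those of oligodendrocytes to at most 1.19 CPM.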

How the data were processed

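Total RNA of 6 samples, extracted with Trizol, was made into QuantSeq 3′ libraries. The authors deposited 1 table per library, with raw read counts for 23282 gene rows and a log2 normalized value, which was not used. The submitters' processing notes name Bowtie2, bedtools, edgeR and GRCm38, without versions or roles, and the strand setting was not given in the sources used here. Counts were analysed in R 4.3.3 with edgeR 4.0.16: filterByExpr (minimum count 10), TMM, the quasi-likelihood test over all tested genes and Benjamini-Hochberg adjustment at 0.05. The SE was derived from the F statistic. Counts of any 2 libraries differed by more than counting error (chi-square over its degrees of freedom 3.76 or more). Symbols were matched to RefSeq of GRCm38.p6 (22058 by symbol, 1071 by synonym). The contractile genes and the lists were chosen with earlier results of these data known. Beside the contractile genes and Jag1, the text names genes from each pathway list reported. These are up to 2 called genes that rose most and up to 2 that fell most, at a mean of 10 CPM or more. Genes at 3 reads or fewer and defining markers are named too. Vcl, Actn1, Mylk, Myh9, Tes, Ccn1, Lmod1, Synpo2, Mrtfb, Scai, Elk1, Elk4, Egr3, Fos, Tpm3 and Tpm4 were added with their values known. So were Tagln2, Myl12a, Myl12b, Myh11, Stambpl1, Fas, Col1a2, Col3a1, Dcn, Anpep, Sox9, S100b and Aldoc. The test was checked on simulated data for this comparison with 11712 genes, of which 100 were changed by 1 and 100 by 2 on the log2 scale. Of these, 89% and 98% were recovered, and 7.88% of calls were false, above the level of 0.05 set. In the real data 55.1% of genes were called, far more than were changed in the simulation, so these rates need not hold there. An exact permutation test of 3 against 3 libraries cannot go below 0.1 and was not used. Alternatives were DESeq2 1.42.0, limma-voom (limma 3.58.1), other normalizations and filters, a replicate block, and each library left out. One further list of genes is not reported here.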

Additional observations from a re-analysis of the deposited data

How the results depend on the processing

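The log2 fold changes of Acta2, Tpm1, Tpm2, Cald1, Cnn2 and Srf kept their sign under all alternatives: Acta2 lay between −3.00 and −2.92, or at −3.59 relative to its chromosome, Tpm1 between −1.85 and −1.81, Tpm2 between −6.21 and −5.97, Cald1 between −0.70 and −0.59, Cnn2 between −0.30 and −0.23 and Srf between 0.31 and 0.36. Tagln changed sign in the absence of control replicate 3 (0.003097) or of JAG1-overexpressing replicate 1 (0.01134), within a range of −0.156 to 0.01134 with 1 library left out; the cause was not tested. The number of broadly expressed isoforms that rose was 2 with DESeq2 size factors, no filter and limma-voom, and 0 to 3 with 1 library left out. The number of SRF cofactors that fell was 1 with library size alone, the DESeq2 Wald test and without genes of chromosomes 15 and 19, and 1 to 2 with 1 library left out. For all tested genes, leaving out 1 library gave 2724 to 3256 higher and 2792 to 3344 lower. The median of chromosome 15 was −0.5135 with library size alone, −0.5542 with upper-quartile normalization, −0.5557 with no filter, −0.5345 with a filter on a mean of 10 counts, and −0.5398 to −0.5264 with 1 library left out; that of chromosome 19 was 0.6256, 0.585 and 0.5477 for the first 3 of these and 0.599 to 0.6186 with 1 library left out. A fold of at least 2, an alternative chosen after seeing the data, as were those on chromosomes, left by its construction fewer calls: 639 higher and 994 lower of all genes, 1 and 9 of the other SRF targets, 0 and 0 of the isoforms and of the cofactors, and 1 and 1 of the immediate early genes. With 1 departure allowed, 6 genes had a CArG box in place of 3. Replicate numbers are shared by the groups, and deviations of same-numbered libraries correlated at 0.208, 0.0571 and 0.138 across genes. Those of differently numbered libraries correlated at −0.213 to −0.0191, except JAG1-overexpressing replicate 2 with control replicate 3 (0.058). The labels do not name pairs and the correlations were low, so the libraries were not taken as pairs. Whether they are pairs was not settled. With the numbers as a replicate block, 3380 genes were higher and 3331 lower, 2 isoforms rose and 1 cofactor fell. Actg2, Cnn1 and Myl9 had too few reads for the fit, and a difference in Cnn1 or Myl9 was not detectable at this depth.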
